A study of Mus musculus with 20 samples.

Results

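The 9 genes described here serve as markers of the fibroblasts on which germline stem cells are grown, collagens left aside. They were taken as a named list (Fn1, Sparc, Thbs1, Lox, Mmp2, Fap, Vim, Twist1 and Pdgfra) and matched by symbol, and all 9 of them were found among the 25965 genes of the chromatin table and the 25067 genes of the RNA table. Germline stem cells (GSCs) are mouse spermatogonial stem cells kept in culture, and the study asked what the H3K4 methyltransferase Kmt2b does to their histone marks and RNA. The control GSCs were Kmt2b F/F with Rosa26-CreERT2 and received ethanol alone. The knockout GSCs (Kmt2b FC/FC) had the same starting genotype, received 4-hydroxytamoxifen (4-OHT) at 1 μM, and were harvested 6 days later. Both groups grew on feeder fibroblasts, and in every comparison the knockout and the drug go together. The series states that duplicate cell lines were used. The strain of the feeders, and whether GSCs were separated from them before harvest, are not given in the sources used here.

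There were 2 control and 2 knockout libraries for each of RNA, H3K4me3, H3K27me3 and input DNA. For H3K9me3 there were 2 libraries, both from control cells, beside 2 further inputs, all 4 made with another library kit than the rest, and the culture of those cells is not given. Mapped reads ran from 38458004 to 45771855 for RNA, from 10538531 to 14810131 for H3K27me3, from 10967790 to 14405261 for input and from 41099194 to 50657504 for H3K9me3. For H3K4me3 they ran from 3830045 to 18035120. The shallowest library of all was knockout replicate 1 of H3K4me3, which also had the smallest share of its reads in gene windows among the H3K4me3 libraries, at 20.7% against 25.6% to 29.0% in the other 3. Kmt2b, listed under its older symbol Wbp7, stood at 146 ± 5.62 RPM of RNA in control, where RPM are read counts relative to library depth, and 158 ± 37.6 RPM in knockout (SD, n = 2), so the count over the whole gene did not separate the groups. That count does not show whether the floxed part was removed.

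Fibroblasts make and remodel connective tissue. Their products include fibronectin and other secreted matrix proteins, enzymes that crosslink or cut the matrix, and the intermediate filament vimentin, and they respond to platelet-derived growth factor through receptors such as the one encoded by Pdgfra. Trimethylation of histone H3 at lysine 4 marks promoters that are active or poised, that at lysine 27 is laid down by Polycomb and goes with silencing, and promoters that carry both are called bivalent. In a bulk library, fewer cells of a type and less RNA per cell cannot be told apart, and signal from feeders cannot be told apart from signal from GSCs.

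Promoter sequence was used for 4 of the 9 genes (RefSeq, GRCm38.p6). The 250 bases upstream of 3 of them are shown because they span the range of H3K4me3 among the markers, from Sparc with the least over input in control cells to Twist1 with the most, and with Pdgfra carrying both marks. The capitals mark CG dinucleotides. Sparc lies at chr11:55420081-55420330 on the minus strand, Twist1 at chr12:33957421-33957670 on the plus strand and Pdgfra at chr5:75152001-75152250 on the plus strand.
Sparc: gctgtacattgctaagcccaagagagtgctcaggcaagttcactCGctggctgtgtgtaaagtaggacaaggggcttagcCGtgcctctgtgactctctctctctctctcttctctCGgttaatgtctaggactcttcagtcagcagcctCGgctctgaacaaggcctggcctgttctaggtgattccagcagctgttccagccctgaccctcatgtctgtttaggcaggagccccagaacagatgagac
Twist1: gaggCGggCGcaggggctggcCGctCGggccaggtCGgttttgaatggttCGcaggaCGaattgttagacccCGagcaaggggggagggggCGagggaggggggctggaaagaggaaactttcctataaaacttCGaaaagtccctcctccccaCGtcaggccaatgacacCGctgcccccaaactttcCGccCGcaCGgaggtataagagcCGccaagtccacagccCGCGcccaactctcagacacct
Pdgfra: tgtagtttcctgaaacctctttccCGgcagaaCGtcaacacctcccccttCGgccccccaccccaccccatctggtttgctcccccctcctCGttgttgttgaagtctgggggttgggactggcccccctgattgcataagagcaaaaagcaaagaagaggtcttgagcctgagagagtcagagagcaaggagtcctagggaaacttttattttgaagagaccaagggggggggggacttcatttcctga
Twist1 had 18 CG dinucleotides in its 250 bases, while Sparc and Pdgfra had 4 each. Over 32851 promoters of the same length the median was 6, with quartiles of 2 and 16, so Twist1 lay above the upper quartile and the other 2 lay below the median. Vim had 8, but its RefSeq start is 384 bp inside the gene as the authors' table places it, and its sequence is not shown. On either strand, TATAAA was present 1 time each in the Vim and Twist1 windows (12.4% of all promoters hold it), CCAAT 2 times for Vim and 1 time for Twist1 (33.8%), and GGGCGG 1 time for Twist1 (32.7%). TGANTCA was in none of the 4 (6.75%), and neither Sparc nor Pdgfra held any of these letters.

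Most of the 9 markers were present in the RNA, and Fap was close to absent. RNA values are RPM as recovered from the deposited log2 values, and since they are not divided by gene length they are compared between libraries and not between genes. Fn1, which encodes the matrix glycoprotein fibronectin, stood at 177 and 184 RPM in the control libraries and at 138 and 199 RPM in the knockout libraries. The knockout libraries lay on either side of both control libraries. Sparc, a secreted matrix protein that binds collagen, stood at 38.2 and 42.6 RPM in control and 42.9 and 41.2 RPM in knockout, so its groups overlapped. Thbs1, which encodes the adhesive glycoprotein thrombospondin, stood at 17.9 and 16.8 RPM in control and 21.3 and 24.3 RPM in knockout, and both knockout values were above both control values.

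Among the matrix enzymes, Lox, which crosslinks collagen and elastin, stood at 8.76 and 8.27 RPM in control and at 10.2 and 9.49 RPM in knockout. Mmp2, a gelatinase that cuts matrix proteins, stood at 19.7 and 19.4 RPM in control and 21.6 and 27.6 RPM in knockout. For both genes the groups did not overlap, by a narrow margin. Fap, a surface protease of activated fibroblasts, had 8 and 3 reads in control and 14 and 9 reads in knockout, at most 0.306 RPM. It fell under the minimum level for testing, a mean log2 RPM of 0.

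The remaining 3 markers were higher in both knockout libraries than in both control libraries. Vim, the intermediate filament protein of mesenchymal cells, stood at 12.1 and 12.4 RPM in control and 15.8 and 16.6 RPM in knockout. Twist1, a basic helix-loop-helix transcription factor of mesenchyme, stood at 7.05 and 7.84 RPM in control and 14.0 and 12.2 RPM in knockout. Pdgfra, a receptor tyrosine kinase for platelet-derived growth factor, stood at 6.21 and 6.38 RPM in control and 9.68 and 11.2 RPM in knockout. Of the 8 markers tested, these last 2 had the largest differences on the log2 scale.

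**Figure D1:**
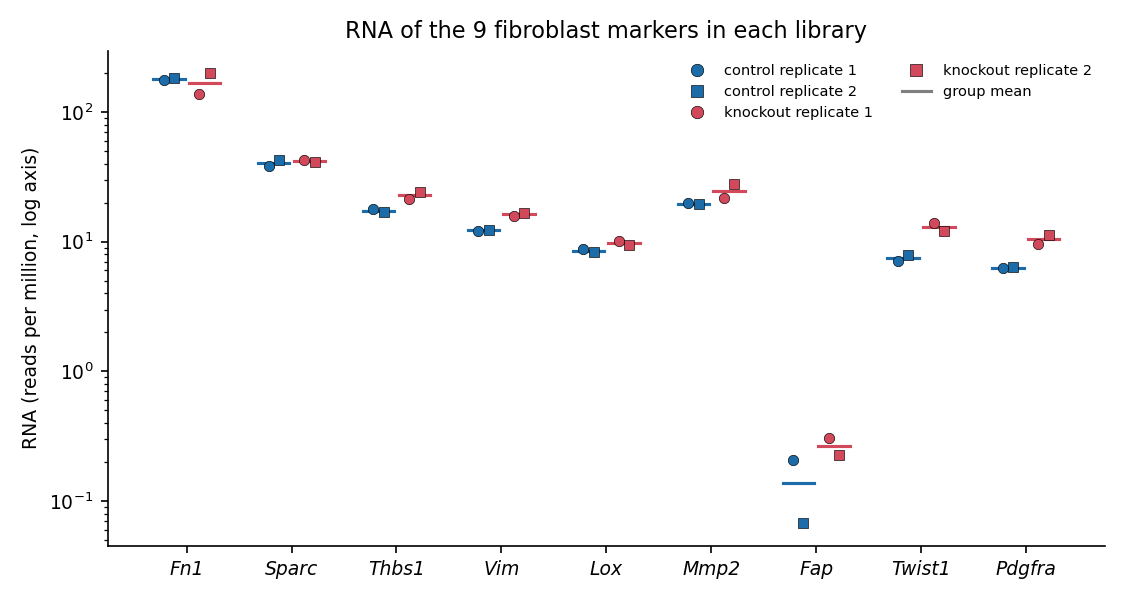
RNA of the 9 markers in RPM (log axis) in each of the 4 libraries; circles are replicate 1, squares are replicate 2, blue is control, red is knockout and lines are group means of 2 libraries. Twist1 and Pdgfra lie clearly higher in both knockout libraries, the knockout values of Fn1 lie on either side of its control values, and Fap is near the floor.

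Two-sided limma tests with a mean-variance trend asked which genes differed in RNA between knockout and control, with Benjamini-Hochberg adjustment over the 14100 genes tested and an adjusted p under 0.05 as the call. Twist1 rose by 0.81 on the log2 scale (SE 0.13, limma adjusted p = 0.0294) and Pdgfra by 0.73 (SE 0.13, limma adjusted p = 0.0382). Thus 2 of the 8 markers tested were called higher and 0 lower, beside 3.01% of all genes called higher and 0.312% called lower. With libraries centred on their median, the calls over all genes changed from 425 higher and 44 lower to 266 higher and 114 lower. The median change of the 8 markers was 0.35, against 0.06 over all genes. In 6 of the 8 both knockout values exceeded both control values, as they did in 36.2% of all genes. Because 2 samples stand in each group, p-values measure only the spread between these libraries, and nothing in the labels tells how far apart the duplicate lines are.

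The other 6 markers tested did not pass. Vim had a log2 difference of 0.41 (SE 0.11, limma adjusted p = 0.0933), Thbs1 of 0.39 (0.122), Mmp2 of 0.32 (0.251) and Lox of 0.21 (0.390), with limma adjusted p in brackets after the first. Sparc had a difference of 0.06 (limma adjusted p = 0.803), which turned to -0.038 with median centring and to -0.018 without control replicate 1. Fn1 had a difference of -0.12 (limma adjusted p = 0.735), and its sign depended on which knockout library was kept: 0.14 without knockout replicate 1 (limma adjusted p = 0.00356) and -0.39 without knockout replicate 2 (1.47e-17). In such fits with 1 knockout library, the spread comes from the 2 control libraries alone, which for RNA lay close together. Across all settings the difference stayed between 0.64 and 0.91 for Twist1 and between 0.54 and 0.83 for Pdgfra, but neither call was kept under every setting. Twist1 had a limma adjusted p of 0.0548 with median centring and 0.0861 without control replicate 1, and Pdgfra of 0.0519 with a minimum of 4 RPM, 0.121 without control replicate 1 and 0.0743 without control replicate 2. With quantile normalization, or with no filter on low values, both passed the threshold no longer, with limma adjusted p between 0.0847 and 0.0969.

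Summed over the 9 markers, the RNA libraries held 288 and 297 RPM in control and 274 and 342 RPM in knockout. The groups overlapped, with a ratio of 1.05. Fn1 made up 61.7% of that control sum. Without Fn1 the sums were 110 and 114 RPM in control and 136 and 143 RPM in knockout, with no overlap and a ratio of 1.24. The sum over collagens of types I, III, V and VI (8 genes) also stood higher, at 317 and 345 RPM in control and 403 and 511 RPM in knockout. Col1a1 made up 41.1% of that control sum, at 131 and 142 RPM in control and 202 and 245 RPM in knockout. Both knockout values exceeded both control values in 4 of the 8 collagens, and in 36.2% of all genes. The 20 germ cell markers held 3452 and 3379 RPM in control and 3331 and 3757 RPM in knockout, with overlap and a ratio of 1.04. These sums are shares of a library, are not divided by length, and were not tested.

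The highest single gene of the germ cell list, Dazl, an RNA-binding protein of germ cells, stood at 787 and 738 RPM in control and 735 and 736 RPM in knockout. Markers of other somatic cells were summed in the same way. The 7 endothelial markers summed to 20.6 and 20.8 RPM in control and 24.8 and 29.0 RPM in knockout, and 13 Sertoli and Leydig markers to 25.6 and 25.2 RPM against 26.7 and 31.3 RPM. Neither sum overlapped between groups, and the ratios were 1.30 and 1.14. Both were larger than the ratio of all 9 fibroblast markers (1.05), and the endothelial ratio was also at least as large as that without Fn1 (1.24). The 10 blood and macrophage markers summed to between 5.85 and 6.67 RPM in control and between 6.65 and 8.35 RPM in knockout, which overlapped. Of these lists, the Leydig enzymes Hsd3b1 and Cyp17a1 and the globin gene Hbb-b1 had no read in any RNA library, but other genes were present. Wt1, the highest Sertoli and Leydig marker, stood at 14.4 and 12.9 RPM in control and 13.9 and 18.4 RPM in knockout. Flt1, the highest endothelial marker, stood at 8.45 and 8.59 RPM against 10.5 and 13.2 RPM. Cd68, the highest of the blood list, stood at 2.73 and 3.09 RPM against 3.34 and 3.30 RPM. In RNA, limma called higher or lower 0 of 7 Sertoli and Leydig, 0 of 2 blood and 0 of 5 endothelial markers tested. Over all genes it called 3.01% higher and 0.312% lower, so counts of 0 in lists this short do not set them apart. Both knockout values exceeded both control values in 4 of 5 endothelial, 2 of 7 Sertoli and Leydig and 1 of 2 blood markers. The same held in 36.2% of all genes. Both lay below both control values in 1 Sertoli and Leydig marker, 0 blood and 0 endothelial markers, and in 2254 of all 14100 genes. The part of other somatic cells in the rise of Twist1 and Pdgfra was not tested.

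**Figure D2:**
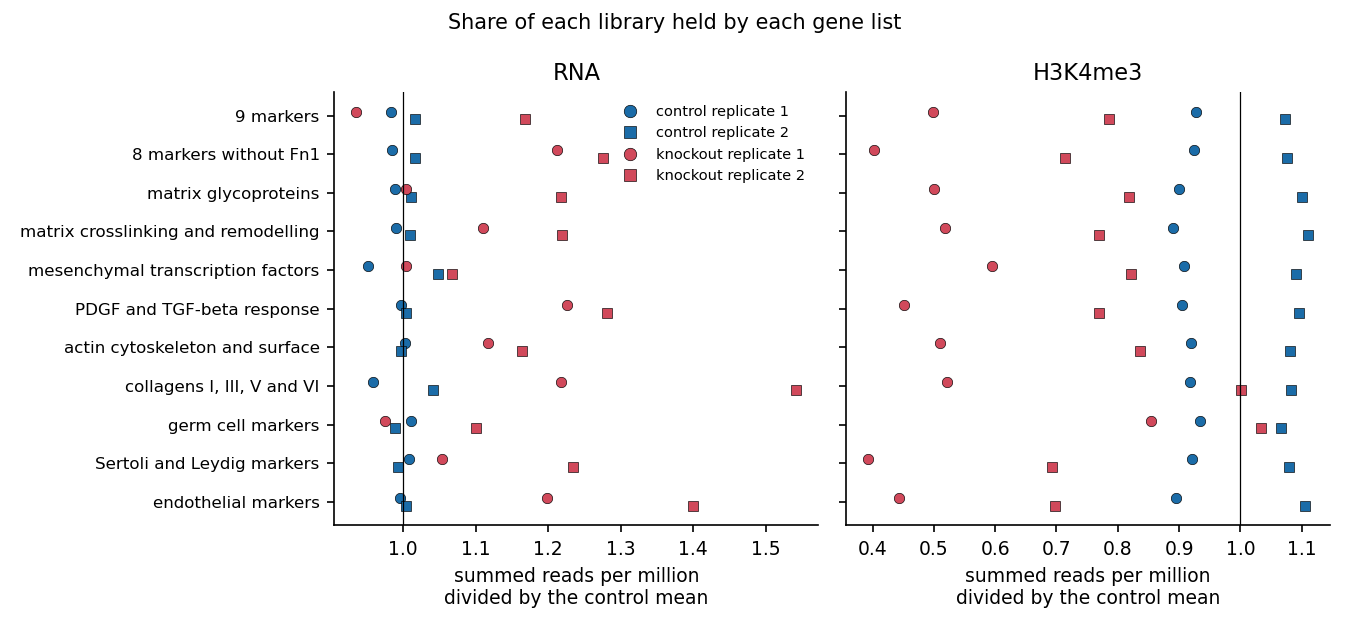
Summed RPM of each gene list in each library, divided by the mean of the 2 control libraries, for RNA (left) and H3K4me3 (right); circles and squares are replicates 1 and 2, blue is control and red is knockout. In RNA the 9 markers, the matrix glycoproteins, the mesenchymal transcription factors and the germ cell markers overlap between groups. The 8 markers without Fn1 and the other lists drawn lie above control in both knockout libraries. In H3K4me3 the markers lie below control in both knockout libraries.

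At the chromatin level the table holds 1 window for each gene, whose size and place are not given in the sources used here. In control cells H3K4me3 stood above input at all 9 markers by limma (adjusted p at most 0.00274), as it did in 99.4% of the windows tested, so this count does not set them apart. The margin ran from 2.50 on the log2 scale at Sparc to 6.08 at Twist1. H3K27me3 passed the minimum of 1 RPM, averaged over mark and input, at 3 markers, and there it stood 2.88 (Lox), 2.79 (Fap) and 3.07 (Pdgfra) above input on the log2 scale, with limma adjusted p of at most 3.88e-06. Across all windows that passed, 89.2% were called higher than input. These 3 passed through the mark itself, so their number is no support.

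The marks were also set beside those of genes in the same band of RNA reads. The bands are coarse, and because RPM are not divided by gene length, genes of a band share a read count and not a level per length. These ratios over input use log2(RPM + 0.5), and they are descriptions of the control libraries, which all genes share. Sparc, with control RNA between 4 and 6 on the log2 RPM scale, had an H3K4me3 ratio of 1.45 where the median of the 4782 genes of its band was 4.19, and only 7.53% of them lay below it. Twist1 had ratios of 5.21 and 4.41 in control replicates 1 and 2, on 2 and 12 input reads. In replicate 2 the ratio of Fn1 was larger, at 4.46. The mean for Twist1, 4.81, lay above 96.5% of the 3422 genes with RNA between 2 and 4. For H3K27me3, Pdgfra and Lox had ratios of 2.22 and 2.13, above 98.3% and 97.9% of that same RNA band, whose median was -0.22. Mmp2, at 0.70, lay above 96.2% of its band. Fap had a ratio of 2.11 with hardly any RNA, above 92.7% of the genes with log2 RPM below 0.

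**Figure D3:**
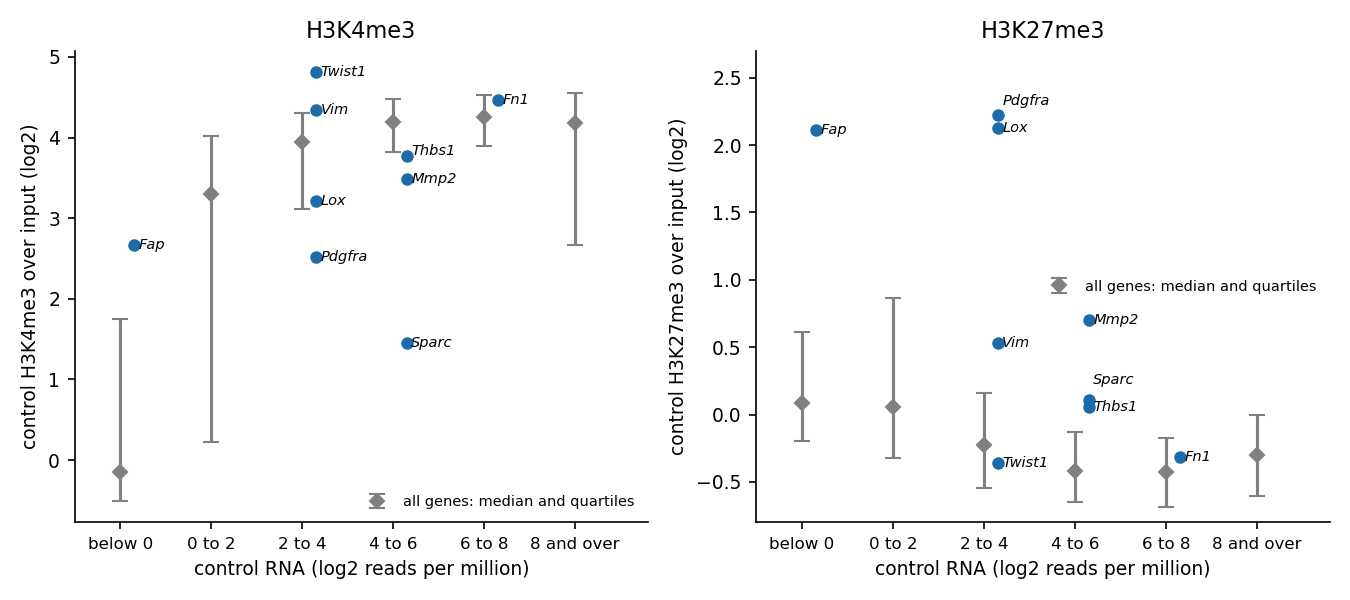
Control H3K4me3 (left) and H3K27me3 (right) over input, as log2 ratios with 0.5 RPM added, against bands of control RNA in log2 RPM; blue points are the 9 markers, and grey diamonds and bars are the median and quartiles of all genes of the band. Sparc lies below the quartiles of its band for H3K4me3, and Lox, Pdgfra and Fap lie above those of theirs for H3K27me3; bands use reads not divided by gene length.

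By fixed limits on these ratios (at least 1.5 for H3K4me3 and 1 for H3K27me3, in both libraries), the control windows of Lox, Fap and Pdgfra carried both marks. Fn1, Thbs1, Vim, Mmp2 and Twist1 carried H3K4me3 only, and Sparc carried neither, since 1 of its 2 H3K4me3 ratios was 1.29. In knockout, Lox and Fap carried H3K27me3 only and Thbs1 carried both marks, while the other 6 kept their class. The change of class at Lox and Fap came from knockout replicate 1 alone, with H3K4me3 ratios of 0.52 and 0.11 on 5 and 4 reads, since replicate 2 still passed the limit at 2.10 and 1.73. At Thbs1, the smaller of the 2 knockout H3K27me3 ratios was 1.09, just past its limit. The input under the Thbs1 ratios held 4 and 7 reads in knockout and 7 and 11 reads in control. Whether both marks lay in the same cells was not measured.

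H3K4me3 fell in knockout at 3 of the 9 markers, Lox, Fap and Vim, by the test given after the values. The matrix enzyme gene Lox stood at 9.65 and 9.81 RPM of H3K4me3 in control and at 1.31 and 3.74 RPM in knockout. Fap stood at 6.37 and 7.32 RPM in control and at 1.04 and 3.26 RPM in knockout. Knockout replicate 1, the shallow library, held only 5 reads at Lox and 4 at Fap, and replicate 2 held 62 and 54. Mmp2 stood at 10.5 and 12.1 RPM in control and at 3.92 and 7.96 RPM in knockout. All 3 enzymes were thus lower in both knockout libraries than in both control libraries.

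Of the 3 matrix proteins, Thbs1 had groups that did not overlap. It stood at 14.1 and 17.9 RPM of H3K4me3 in control and at 6.53 and 8.20 RPM in knockout. Fn1 stood at 22.8 and 25.8 RPM in control and at 21.7 and 26.4 RPM in knockout. Sparc was low throughout, at 1.83 and 1.66 RPM in control and 1.31 and 3.92 RPM in knockout. The groups of Fn1 and of Sparc overlapped.

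Vim stood at 21.3 and 23.3 RPM of H3K4me3 in control and at 8.35 and 11.9 RPM in knockout, with no overlap. Twist1 stood at 24.8 and 27.8 RPM in control, and its knockout libraries differed from each other, at 13.3 and 26.4 RPM. Pdgfra stood at 3.76 and 7.43 RPM in control and at 4.44 and 5.79 RPM in knockout, inside the control range. So the 2 genes whose RNA rose had overlapping groups in H3K4me3.

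**Figure D4:**
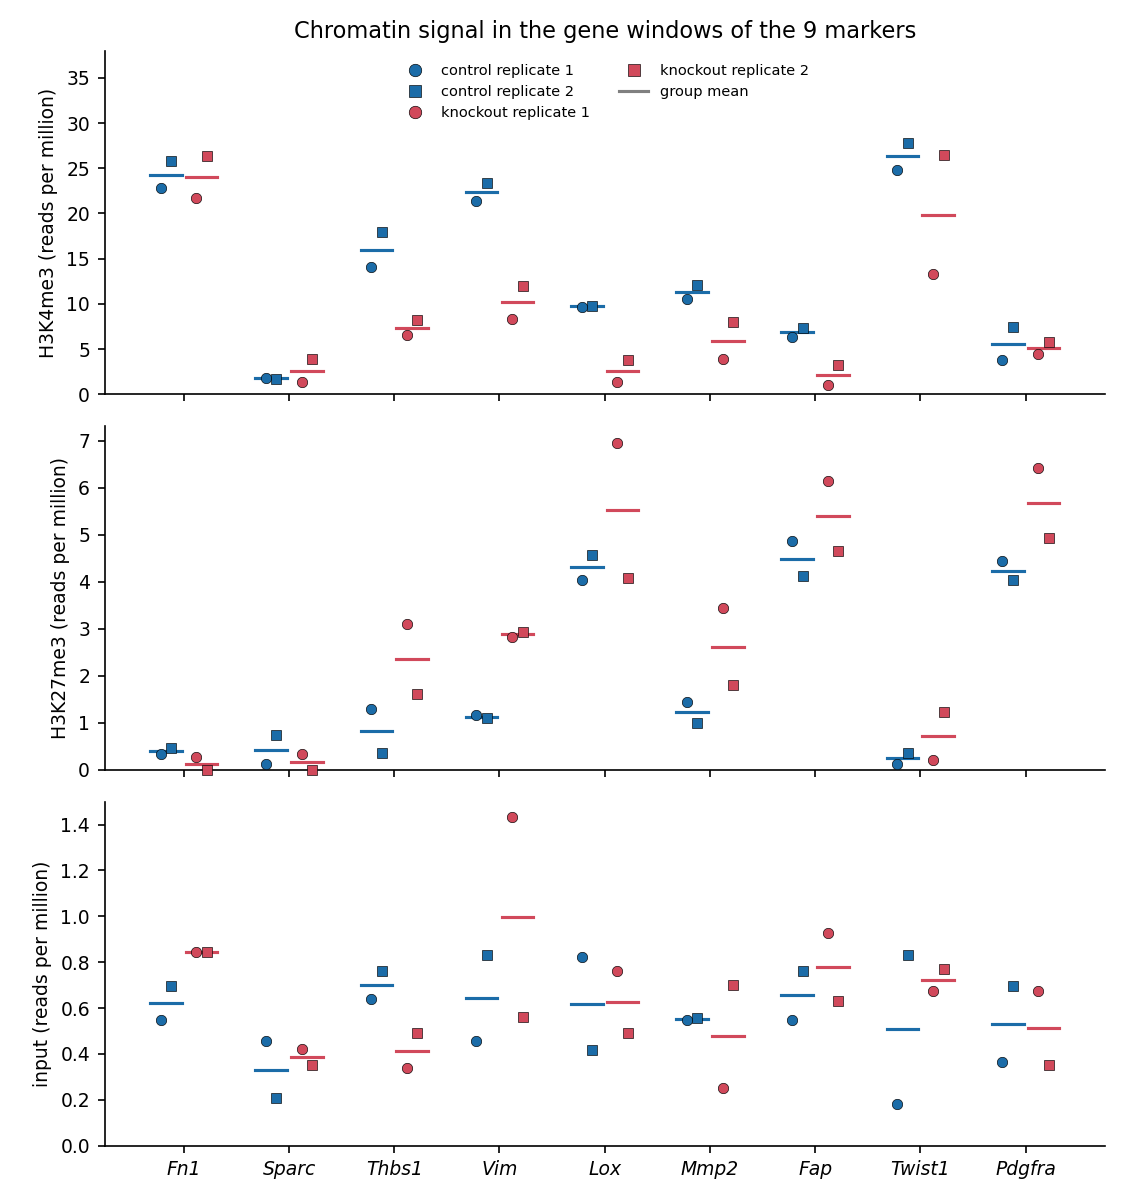
RPM in the gene window of each of the 9 markers for H3K4me3 (top), H3K27me3 (middle) and input (bottom), on separate linear axes; circles and squares are replicates 1 and 2, blue is control, red is knockout and lines are means of 2 libraries. H3K4me3 of Thbs1, Vim, Lox, Mmp2 and Fap lies lower in both knockout libraries, and H3K27me3 of Thbs1, Vim, Mmp2 and Pdgfra lies higher in both.

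In limma over 15624 windows, H3K4me3 fell at Lox, with a log2 change of -2.14 (SE 0.56, adjusted p = 0.00862), at Fap (-1.89, SE 0.60, adjusted p = 0.0298) and at Vim (-1.16, SE 0.34, adjusted p = 0.0189). That is 3 of 9 markers called lower and 0 called higher, beside 9.90% of all windows called lower and 0.0512% called higher. With median centring, calls over all windows changed from 1546 lower and 8 higher to 1430 lower and 642 higher, and the 3 markers remained called. The median change of the 9 was -1.01, against -0.26 over all windows, and median centring moved these to -0.72 and 0.03. With quantile normalization they were -0.40 and 0.01. Both knockout values lay below both control values in 5 of the 9 markers, as in 42.8% of all windows. Of the rest, Thbs1 missed the threshold at -1.12 (limma adjusted p = 0.0515) and passed it with median centring (0.0463) and with voom (0.0113), and Mmp2 had a difference of -1.01 (0.134). Twist1 had -0.49 (limma adjusted p = 0.242), Sparc 0.37 (0.844), Pdgfra -0.06 (0.973) and Fn1 -0.02 (0.982), and the signs of Pdgfra and Fn1 turned with median centring, to 0.23 and 0.27.

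The calls depended on single libraries. Without knockout replicate 1, the change was -1.38 at Lox (limma adjusted p = 0.0257) and -0.90 at Vim (0.0156), Thbs1 was called at -0.95 (0.0407), and Fap had -1.07 (0.124) and was called no longer. Without knockout replicate 2, the median change of the 9 markers was -1.28, against -0.50 over all windows. Without control replicate 1 or without control replicate 2, limma called 0 windows lower over the whole table (688 and 200 at unadjusted p under 0.05), although the values at Lox were -2.15 and -2.13. With quantile normalization Vim alone was called lower, at -0.84 (limma adjusted p = 0.0157), and Sparc was called higher at 1.83 (0.0445).

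The sizes of these falls can be set beside windows of like strength. Vim and Thbs1 belong to the 9152 tested windows with 16 to 32 RPM of control H3K4me3, whose median change was -0.10 with quartiles of -0.36 and 0.08, and both lay below that range. Thbs1, at 16.001 RPM in control, sits at the lower edge of this band, and it would lie within the quartiles of the next lower band, -1.15 and -0.21. Fn1 and Twist1 are in the same band, where Fn1 lay within the quartiles and Twist1 below the lower one. Lox and Mmp2 belong to a band of 8 to 16 RPM with a median of -0.66 and a lower quartile of -1.15, below which Lox lay and Mmp2 did not. Fap and Pdgfra belong to a band of 4 to 8 RPM with quartiles of -1.70 and -0.75, and they lay below and above it. Over all windows, those with both marks in control had a median change of -1.30 with 43.7% called lower, against -0.16 and 4.74% for those with H3K4me3 only. Vim, which carried H3K4me3 only, was called lower, and Pdgfra, which carried both, was not.

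No marker passed the test for H3K27me3, and 4 of the 6 tested had higher values in both knockout libraries. Vim stood at 1.16 and 1.10 RPM in control and at 2.84 and 2.94 RPM in knockout. Thbs1 stood at 1.30 and 0.366 RPM in control and at 3.11 and 1.61 RPM in knockout, and Mmp2 at 1.44 and 1.01 RPM against 3.44 and 1.80 RPM. All 3 were higher in both knockout libraries, on counts of 4 to 51 reads. Pdgfra stood at 4.45 and 4.03 RPM in control and at 6.41 and 4.93 RPM in knockout. Lox stood at 4.04 and 4.58 RPM against 6.95 and 4.08 RPM, and Fap at 4.86 and 4.12 RPM against 6.14 and 4.65 RPM. Lox and Fap overlapped between groups, with knockout replicate 1 the highest library for both. Fn1, Sparc and Twist1 held between 0 and 13 reads in every H3K27me3 library and were not tested.

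Over 4807 windows, limma called 0 of the 6 markers tested in either direction, beside 0.791% of all windows called higher. At an unadjusted p under 0.05 there were 2 markers, Thbs1 at 1.70 (SE 0.60, limma adjusted p = 0.166) and Vim at 1.35 (SE 0.55, limma adjusted p = 0.245), and 12.0% of all windows passed that in the same direction; voom also called 0 markers. Both knockout values exceeded both control values in 4 of the 6, as in 36.9% of all windows. The median change was 0.73 over the 6 and 0.45 over all windows, and both depended on scaling, since they became 0.15 and -0.13 with median centring. Mmp2 had a difference of 1.05, Pdgfra of 0.41, Lox of 0.31 and Fap of 0.26, with limma adjusted p from 0.421 to 0.920, and centring turned Pdgfra, Lox and Fap to -0.17, -0.27 and -0.33. Thbs1 was called at 2.61 without control replicate 1 (limma adjusted p = 0.00882). With centring, the calls over all windows went from 38 higher and 0 lower to 81 higher and 202 lower.

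**Figure D5:**
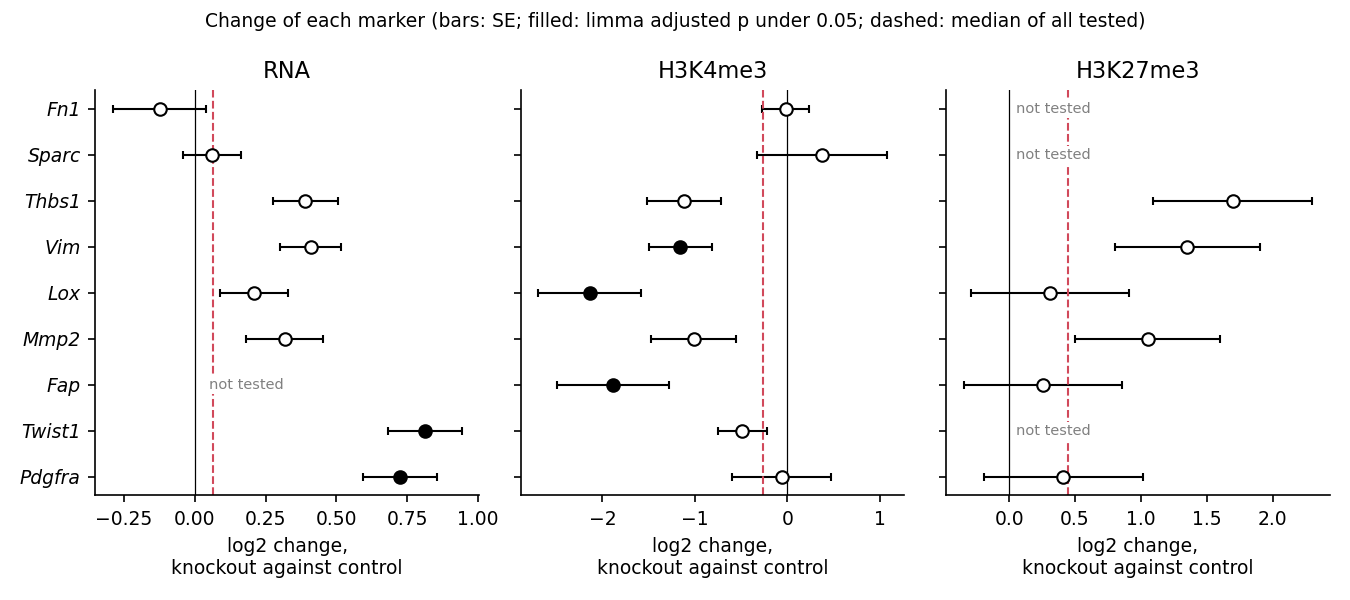
Log2 change of each marker in knockout against control for RNA, H3K4me3 and H3K27me3 (points with SE bars from limma; filled points had an adjusted p under 0.05; dashed lines are the median of all genes or windows tested). RNA changes are called at Twist1 and Pdgfra and H3K4me3 changes at Vim, Lox and Fap. In these main fits no marker is called in both, and Fap was not tested in RNA.

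In the main fits the genes called in RNA and those called in H3K4me3 were different ones, and no marker was called in both. Fap was not tested in RNA, and Vim missed the RNA threshold (limma adjusted p = 0.0933). With a replicate block, 4 of 8 markers were called in RNA and 6 of 9 in H3K4me3, so the called markers overlapped. That block also called 1292 of all 14100 genes higher in RNA and 4037 of all 15624 windows lower in H3K4me3. The separation thus depends on the threshold and the setting. In input DNA, limma called 0 of the 9 markers in input and 0 of the 15624 windows, with 0 markers at an unadjusted p under 0.05 beside 2.53% of windows lower and 2.21% higher, and the 9 windows together held 4.56 and 5.76 RPM in control and 6.33 and 5.20 RPM in knockout. At Thbs1, input was also lower in both knockout libraries, at 0.638 and 0.764 RPM in control and 0.338 and 0.492 RPM in knockout (4 to 11 reads; log2 difference -0.78, limma adjusted p = 0.972), the same direction as its H3K4me3. Summed H3K4me3 over the 9 was 115 and 133 RPM in control and 61.9 and 97.6 RPM in knockout, and over the germ cell markers 274 and 313 RPM against 251 and 304 RPM. The sums of the fibroblast markers did not overlap between groups, and those of the germ cell markers did. Sums of the Sertoli and Leydig markers (60.7 and 71.1 RPM against 25.8 and 45.6 RPM), of the endothelial markers (56.9 and 70.4 RPM against 28.2 and 44.5 RPM) and of the blood markers (15.9 and 17.4 RPM against 7.05 and 8.93 RPM) also lay lower in both knockout libraries. Lower H3K4me3 was therefore not limited to fibroblast genes, and the part of cell numbers in it was not tested.

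H3K9me3, a mark of constitutive heterochromatin, was close to absent at the markers. Each library held between 0 and 6 reads at each marker, against 9 to 40 in the inputs from the same kit. None of the 9 passed the minimum of 1 RPM, which 324 windows passed. With no minimum, all 9 were called lower than input by limma (from -2.23 at Fap to -4.38 at Sparc), as were 79.0% of all windows. The median over all windows was -2.50. Sparc held 1 and 2 reads of H3K9me3 on 40 and 28 reads of input, the highest input RPM among the 9. By the ratio with 0.5 RPM added, Sparc lay at the low extreme, at -1.11 and above only 0.239% of all windows. The other markers lay above 16.3% (Vim) to 73.6% (Fap) of them.

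The start of Fn1 lies 334 bp from that of Apol7d on the opposite strand, and the start of Thbs1 lies 674 bp from that of Gm13986, also on the opposite strand. Their windows may share reads with those neighbours. In RNA, Apol7d had 2.46 RPM in control and 2.60 RPM in knockout on average, and Gm13986 had 1.11 and 1.45 RPM. The positions of all markers but Lox follow. In the mm10 coordinates of the authors' tables, Vim spans chr2:13573927-13582826, Fap chr2:62500943-62574075, Thbs1 chr2:118111876-118127133, Mmp2 chr8:92827328-92853417, Fn1 chr1:71585523-71653171, Twist1 chr12:33957671-33959817, Pdgfra chr5:75152291-75198204 and Sparc chr11:55394500-55420080.

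The 5 wider lists of fibroblast genes (87 genes in all: matrix glycoproteins, matrix crosslinking and remodelling, mesenchymal transcription factors, platelet-derived growth factor and TGF-beta response, and actin cytoskeleton and surface) were tested in the same fits. In RNA, 5 of the 69 tested were called higher and 0 lower, beside the 3.01% and 0.312% of all genes, with a median change of 0.39. The 5 were Myl9, a myosin light chain of contractile cells (0.97), Pdgfa, a ligand of the Pdgfra receptor (0.73), the metalloproteinases Mmp9 (0.68) and Mmp11 (0.64), and Cnn2, an actin-binding calponin (0.65), with limma adjusted p from 0.0255 to 0.0480. Pdgfa RNA stood at 16.9 and 16.3 RPM in control and 30.0 and 25.3 RPM in knockout, so Pdgfa and Pdgfra were both higher in both knockout libraries. This did not extend to calls at Pdgfb (0.0339, limma adjusted p = 0.882) or Pdgfrb (0.259, limma adjusted p = 0.488). Pdgfb lay slightly higher in both knockout libraries, and the groups of Pdgfrb overlapped. Myl9 alone of the 5 remained called with median centring, without control replicate 1 and without control replicate 2, and with quantile normalization none did. Among the collagens, Col6a3 (0.99) and Col1a1 (0.71) were called higher in RNA, 2 of 8 tested. Of the 20 germ cell markers 3 were called higher, namely Nanos2 (0.93), Gfra1 (0.62) and Ret (0.62), so higher RNA was not limited to somatic genes. Without either control library in turn, Col1a1 (limma adjusted p = 0.199 and 0.0631), Gfra1 (0.255 and 0.153) and Ret (0.358 and 0.128) were called no longer, while Col6a3 and Nanos2 were.

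In H3K4me3, 15 of 75 tested genes of these wider lists were called lower and 0 higher, beside the 9.90% and 0.0512% of all windows, with a median change of -0.75. At most 3 per list are named. They were Fbln2 (-2.55) and Eln (-2.07), which encode elastic fibre proteins, the collagen propeptidase Adamts2 (-1.23), the transcription factors Runx1 (-2.50), Tcf21 (-1.78) and Meox2 (-1.67), the TGF-beta co-receptor Eng (-1.88), Ltbp2 (-1.60) and Cyr61 (-1.31) of the extracellular matrix, and Tagln (-2.19), S100a6 (-2.02) and Tpm1 (-1.45), of which the first and last bind actin. Fbln2 went from 5.79 and 6.04 RPM to 0.261 and 3.92 RPM, the lower of which is 1 read in the shallow library. Without that library, Meox2 alone of these 12 stayed called (-1.45, limma adjusted p = 0.00880), with 902 windows called lower over the table in place of 1546. Collagens were not called in H3K4me3 (0 of 7, with 0 at an unadjusted p under 0.05 and a median of -0.49), nor were germ cell markers (0 of 19, with 2 lower at an unadjusted p under 0.05 and a median of -0.17). Of the other somatic lists, Cldn11 of Sertoli cells (-1.66), Fcgr3 of myeloid cells (-2.04) and Esam of endothelium (-1.78) were called lower, and Esam lost its call without the shallow library (-0.97, limma adjusted p = 0.144). In H3K27me3, Itgav, an integrin subunit, was the only gene of the wider lists called of 47 tested (2.64, limma adjusted p = 0.0497), and control replicate 2 held 1 read there. Without that library the difference was 0.77 (limma adjusted p = 0.99993), and it also missed the threshold without either knockout library.

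The genes whose values over all 20 libraries were most like the median of the 9 markers, by Euclidean distance on the log2 scale, were Anpep (1.48), Ablim1 (1.62), Mcf2l (2.02), Tgfbi (2.10) and Als2cl (2.16). Among the markers themselves, Mmp2 lay closest to that median at 2.13 and Fap farthest at 13.5. Ablim1, which encodes an actin-binding LIM protein, was called in both readouts, higher in RNA by 0.74 (limma adjusted p = 0.0260) and lower in H3K4me3 with a change of -1.18 (limma adjusted p = 0.0440). The other 4 were called in neither. These genes were picked by values of the same libraries that were then tested, so their calls are no independent support.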

How the data were processed

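Chromatin (1 window per gene, 16 libraries) and RNA (4 libraries) of mouse GSC cultures were analysed. The deposited values are log2 RPM (counts relative to each library's mapped total), calculated by the authors and not divided by input or gene length. CASAVA 1.8, Trim Galore 0.4.0, Bowtie 1.1.1, TopHat2 2.0.14 and build mm10 are named per the submitters' processing notes, without roles. The window's size and place and the strand setting of the RNA counts are not given in the sources used here. Whole reads were recovered from the values (100% whole within 0.1), and RPM and depths come from them.

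Groups came from the labels. Each comparison was fitted over all genes with limma 3.58.1 (R 4.3.3), with a mean-variance trend, two-sided, Benjamini-Hochberg adjusted, on windows averaging 1 RPM or more, or, for RNA, genes whose mean log2 RPM was 0 or more. Input used the H3K4me3 windows. With 2 libraries per group, precision is limited. The scripts were tested on simulated data. The alternatives were median centring, quantile normalization, no filter, a minimum of 4 RPM, 0.5 RPM added, voom on recovered reads, a replicate block and leaving out each library.

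The members and lists were chosen with earlier results of these data known. Named genes are the 9 markers, at most 3 called genes per other list and comparison with the largest changes, and the 5 genes nearest to the markers' median. The highest RNA gene per list, also in that rule, was Nid2, Plod2, Snai1, Pdgfb, Itgb1, Col1a1, Dazl, Wt1, Cd68 and Flt1, in the order of the lists. Values are given for Dazl, Wt1, Cd68 and Flt1, and for Col1a1 as a called gene. Nid2, Plod2, Snai1, Pdgfb and Itgb1 are given with their RNA changes.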

Additional observations from a re-analysis of the deposited data

How the results depend on the processing

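Each group had 2 libraries, and the calls over all genes moved with the setting. In RNA, 425 higher and 44 lower became 50 and 20 with quantile normalization, 0 and 0 with no filter, 192 and 18 with a minimum of 4 RPM, and between 237 and 5239 higher and 28 and 3104 lower when a library was left out. In H3K4me3, 1546 lower and 8 higher became 595 and 414 with quantile normalization, 1028 and 56 with no filter, 852 and 7 with a minimum of 4 RPM, 2587 and 112 with voom, and between 0 and 6921 lower and 2 and 130 higher when a library was left out. In H3K27me3, 38 higher became 3 with quantile normalization, 0 with a minimum of 4 RPM and between 0 and 181 when a library was left out. The cause was not tested.

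Markers called higher in RNA (2) became 1 with median centring, 0 with quantile normalization, 0 with no filter, 1 with a minimum of 4 RPM, and 0 to 6 when a library was left out, with 0 to 1 called lower. Markers called lower in H3K4me3 (3) became 1 with quantile normalization, which also gave 1 higher, and 0 to 6 when a library was left out. Markers called higher in H3K27me3 (0) became 0 to 1 when a library was left out. H3K4me3 over input (9 higher) and H3K27me3 over input (3 higher) each gave 0 with median centring and 0 with quantile normalization, both of which set mark and input to the same level by construction, and H3K27me3 gave 0 with a minimum of 4 RPM, which no marker passed. H3K9me3 had no marker tested, and 9 called lower with no filter.

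Signs turned as follows. In RNA, Sparc went to -0.038 with median centring and ranged from -0.018 to 0.14 when a library was left out, and Fn1 from -0.39 to 0.14. In H3K4me3, Fn1 went to 0.27 with median centring, 0.0023 with quantile normalization and 0.045 with voom, and from -0.16 to 0.12 when a library was left out. Pdgfra went to 0.23, then 1.05 with quantile normalization, and ranged from -0.55 to 0.43, Twist1 from -0.98 to 0.0078 and Sparc from -0.42 to 1.17. In H3K27me3, median centring gave Fap -0.33, Pdgfra -0.17 and Lox -0.27, quantile normalization gave -0.16, -0.017 and -0.13, and Lox ranged from -0.075 to 0.69 when a library was left out. In H3K4me3 over input, median centring gave Fap -1.56, Thbs1 -0.45, Pdgfra -1.57, Mmp2 -0.61, Sparc -2.46 and Lox -0.90, and quantile normalization -1.31, -0.41, -1.19, -0.53, -1.80 and -0.61.

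The summed RNA of the markers changed by 0.06 on the log2 scale, by 0.31 without Fn1, by 0.44 with each marker weighted alike, and by -0.10 to 0.22 when a library was left out. The median ratio over input in control was 3.49 for H3K4me3, 4.13 with 0.1 RPM added and 2.98 with 1 RPM added, and for H3K27me3 0.53, 0.77 with 0.1 RPM added and 0.51 to 0.80 when a control library was left out.

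Only 2 pairs share a replicate number, and the labels do not say what the number marks, so the libraries were taken to share only a number. The correlation of their deviations was 0.0909 for RNA, 0.149 for H3K4me3 and 0.0617 for H3K27me3. With the replicate block, 4 markers were called higher in RNA, 6 lower in H3K4me3 and 3 higher in H3K27me3, and over all genes 1292 higher and 195 lower in RNA, 4037 lower and 70 higher in H3K4me3, and 1206 higher and 7 lower in H3K27me3.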
